A study of Homo sapiens with 34 samples.

Results

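Cadherins are calcium-dependent adhesion receptors that hold neighbouring cells together through their extracellular repeats, and the classical members are tied to actin inside the cell by the catenins. The non-clustered protocadherins are single genes spread over the genome, most of them studied in the nervous system and in embryonic patterning. The clustered protocadherins stand in 3 tandem arrays, alpha, beta and gamma, on chromosome 5, where each variable exon has its own promoter and where the mix of isoforms gives single neurons their surface identity. The genes described here were all rows of the expression table named CDH or PCDH with a number or isoform code. CDH5, the endothelial VE-cadherin, was left out by that rule. They came to 85 of the 20255 genes in the table: 19 cadherins, 13 non-clustered protocadherins and 53 clustered protocadherins (15 alpha, 16 beta and 22 gamma).

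RNA was sequenced from the human embryonic stem cell line H1, a single established line, during blood differentiation without exogenous haematopoietic cytokines. BMP4 and VEGF started the differentiation, and later VEGF was the only growth factor, from day 3 by the labels and from the first change of medium after attachment by the study's methods. The 34 samples were undifferentiated H1 cells (1 sample, no treatment), embryoid bodies at day 0 (labelled BMP4+hVEGF), unsorted cells at days 2 and 4 (labelled hVEGF), day 6, day 9 and day 12 cells sorted into CD43- and CD43+, and CD43-CD45- and CD43+/CD45+ cells sorted at day 16, the sorted cells also labelled hVEGF. There were 3 biological replicates in each of the 11 differentiated populations, and the 12 populations are described in this order throughout. CD43 is a sialoglycoprotein of blood cells, and the day 16 populations are called CD43- and CD43+ below for short.

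Values are GC-normalized tag counts, in which every sample was forced to the same set of values (sum 17856940, median 197), so sequencing depth is unknown. Cadherin and protocadherin levels are compared between samples of a gene, never between genes. The marker sums add the values of several genes, so genes with large values weigh most in them. A gene was called between 2 populations where limma on log2(value + 1), with Benjamini-Hochberg adjustment over the 19788 genes tested, gave an adjusted p under 0.05 and a fold change above 4. Fold changes are on that log2(value + 1) scale, which understates low genes. All 85 genes reached 10 in 3 or more samples, the filter on low values, and were tested. Because these were mixed populations of cells, fewer cells that express a gene and less RNA in each cell cannot be told apart.

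SPN, the gene of CD43, had means of 2668 to 9203 in the CD43+ populations and 23 to 178 in the CD43- populations. All 10 blood markers were called higher in CD43+ cells at days 9, 12 and 16, and 8 of 10 at day 6. The summed blood level was 30723 to 38605 in day 6 CD43+ cells and 146073 to 161760 at day 16. In CD43- cells it was 828 to 1678 at days 6 and 9 but 1314 to 8752 at day 12 and 6780 to 18799 at day 16. The CD43- cells carried mesenchymal, epithelial, endothelial and liver or yolk sac endoderm markers together. Of the 8 endoderm markers, 7, 6, 6 and 7 were called lower in CD43+ cells at days 6, 9, 12 and 16, and AFP had a mean of 14440 in day 16 CD43- cells. Summed epithelial markers were 43165 to 129478 in all CD43- samples against 1207 to 7832 in all CD43+ samples, where ESRP1 was at a mean of 0 on days 6 and 12. Summed mesenchymal markers were 202247 to 329420 in CD43- cells and 4382 to 156322 in CD43+ cells, the highest of the latter being replicate 3 of day 6.

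More of these genes were called lower in CD43+ cells on each later day. At day 6, 14 of the 85 genes were called lower and 1 higher in CD43+ cells, where limma called 7.85% of all genes lower and 4.68% higher. At day 9, 50 were lower and 2 higher, against 12.8% and 8.65% of all genes. At day 12, 58 were lower and 1 higher, against 14.4% and 11.8%. At day 16, 61 were lower and 1 higher, against 13.6% and 12.2%. In either direction limma called 12.5%, 21.5%, 26.2% and 25.8% of all genes on these days. All 3 CD43+ values lay below all 3 CD43- values for 38, 71, 65 and 70 of the 85 genes, and for 22.9%, 28.7%, 26.4% and 32.7% of all genes tested. The median difference (log2, CD43+ minus CD43-) over the 85 genes was -0.70, -2.26, -2.87 and -2.97 at days 6, 9, 12 and 16, beside 0.14, 0.24, 0.22 and 0.14 over all genes. Scaling the samples by median ratios brought the last 4 values to 0, 0.04, 0.12 and 0.12. Under that scaling 16, 55, 59 and 62 of the 85 genes were called in either direction, in place of 15, 52, 59 and 62. PCDH10 was called at day 6 with the scaling (-2.11) but not in the fit reported here.

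The clustered and the other genes were also counted apart. At day 6, 12 of the 32 non-clustered genes but 2 of the 53 clustered genes were called lower, where 7.85% of all genes were. Some other clustered genes were lower at day 6 by less than the fold threshold. Among them were PCDHA6 (-1.55, limma adjusted p = 1.17e-06) and PCDHGB6 (-1.43, limma adjusted p = 5.25e-07). By day 9 the counts of non-clustered and clustered genes called lower were 21 and 29. By day 12 they were 23 and 35, and by day 16 they were 23 and 38. The shares of all genes called lower on those later days were 12.8%, 14.4% and 13.6%. No clustered gene was called higher in CD43+ cells by limma on any day, and at an unadjusted p under 0.05 the counts higher were 0, 0, 0 and 1. When the day 12 difference was tested against the day 6 difference, the change was called downwards for 25 clustered and 14 other genes and upwards for 2 others, against 10% and 8.44% of all genes (18.5% in either direction). Under a pseudocount of 10 the total of 62 called at day 16 became 41.

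**Figure D1:**
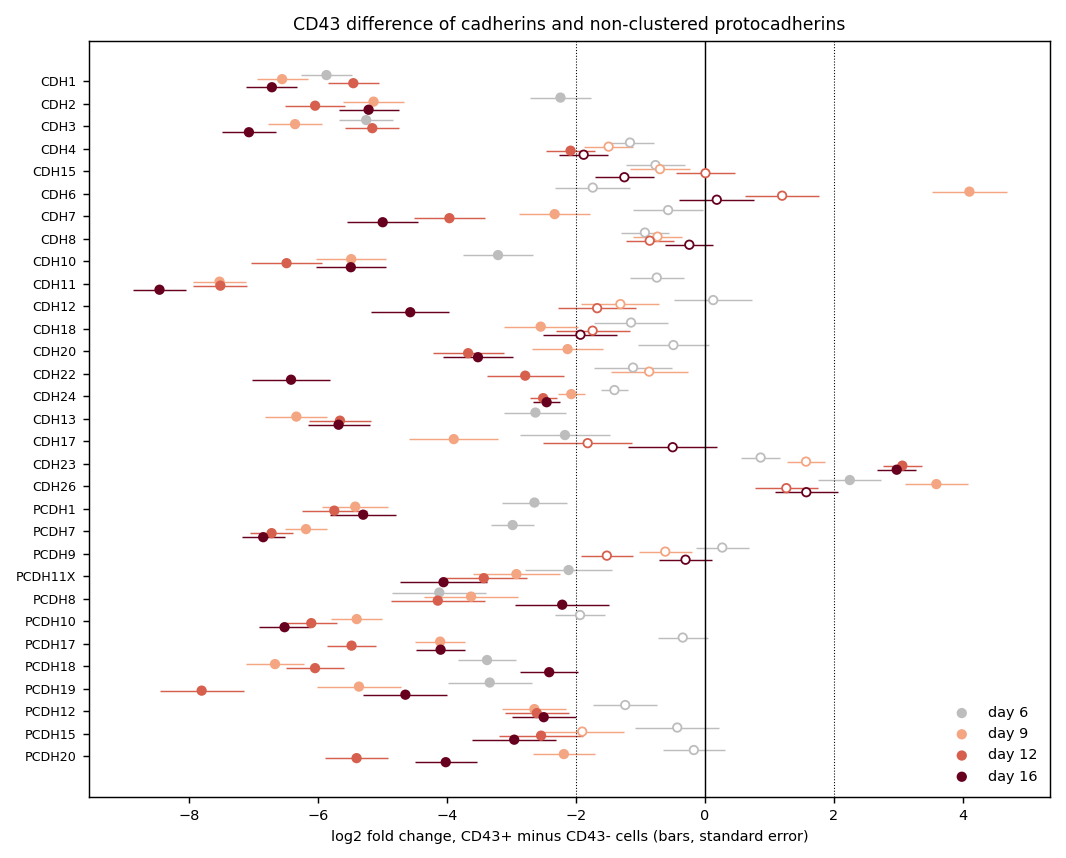
Differences between CD43+ and CD43- cells (log2, CD43+ minus CD43-) for the non-clustered genes, with days 6, 9, 12 and 16 as separate colours, filled points for called and open points for uncalled genes, bars for the standard error and dotted lines at the fold threshold. CDH1 and CDH3 are far below 0 on every day, CDH11 and PCDH17 move away from 0 after day 6, and CDH6, CDH23 and CDH26 lie above 0 where called.

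The classical type I cadherins bind cells of their own kind and were divided by the day of their change. CDH1 (E-cadherin, chr16:68737225-68835548 on GRCh38, the junction protein of epithelia and pluripotent cells) was at 7633, 8276 and 6070 at day 0 and 7910, 8798 and 8276 at day 2, then 1556, 1492 and 1492 at day 4. All day 4 values were below all day 2 values (log2 fold change -2.46 ± 0.40 SE, limma adjusted p = 1.58e-05).

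At day 6 the CD43- cells held CDH1 at 708, 1292 and 1110 and the CD43+ cells at 13, 27 and 12. The populations did not overlap, and the difference of -5.87 ± 0.40 (limma adjusted p = 4.52e-12) was the largest fall of any of the 85 genes at that day. From day 9 the CD43- cells were at 3377, 5641 and 1866, and the CD43+ cells stayed at 17, 42 and 54. The day 16 values were 4610, 5558 and 4846 in CD43- cells against 48, 58 and 36 in CD43+ cells, a difference of -6.72 ± 0.40 (limma adjusted p = 3.8e-14). The increase of CDH1 in CD43- cells from day 6 to day 9 was 1.71 ± 0.40 on the log2 scale (limma adjusted p = 0.00842) and did not reach the fold threshold. The epithelial marker sums were lower in CD43+ cells on every day, as CDH1 was, and their part in that difference was not tested. Within CD43- cells these sums did not follow CDH1, with 73555 to 129478 at day 6, 68013 to 76661 at day 9 and 43165 to 44992 at day 16. Keratins weighed most in them and did not move together. KRT8 and KRT18 means fell from 76487 and 18065 at day 6 to 17841 and 7367 at day 16, while the KRT19 mean went from 12976 to 16826.

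CDH3 (P-cadherin, another epithelial cadherin, beside CDH1 on chromosome 16) was at 3822, 3899 and 3460 at day 0 and 2680, 2362 and 2554 at day 4. It then stood at 1900, 2760 and 4850 in day 6 CD43- cells and 44, 96 and 104 in day 6 CD43+ cells. The fall against CD43- cells was -5.25 ± 0.42 at day 6 (limma adjusted p = 8.39e-11) and -7.07 ± 0.42 at day 16 (limma adjusted p = 3.63e-14).

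CDH2 (N-cadherin, characteristic of mesoderm, mesenchyme and neural tissue) rose as the cells left the embryoid body stage. Its values were 940, 946 and 876 at day 0 and 8975, 10084 and 8278 at day 2, a rise of 3.30 ± 0.47 (limma adjusted p = 2.64e-06). At day 4 they were 2898, 3246 and 3048. Its highest level before sorting was at day 2, when CDH1 was not called against day 0.

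In sorted day 6 cells CDH2 was at 4039, 5252 and 1484 in CD43- and 664, 664 and 672 in CD43+ cells (-2.24 ± 0.47, limma adjusted p = 0.000241). That call rested on replicate 2 of the CD43- cells: without it the difference was -1.88. At day 12 the CD43+ values were 48, 12 and 28 against 3424, 1185 and 1310, so that the populations did not overlap and the difference was -6.05 ± 0.47 (limma adjusted p = 8.49e-12). CDH4 (R-cadherin, known from retina) was at 308, 355 and 354 at day 0 and at 20, 16 and 11 in CD43- and 3, 6 and 1 in CD43+ cells at day 12. CDH15 (M-cadherin of muscle) was at or below 40 in every sample and was called in none of the 4 CD43 comparisons.

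The type II cadherins, which guide the sorting and migration of mesenchymal and neural cells, were led by CDH11. CDH11 (cadherin 11 of mesenchyme and bone, chr16:64943753-65126112 on GRCh38) was at 114, 112 and 122 at day 0, 1502, 1837 and 1439 at day 2 and 11996, 12826 and 10075 at day 4. Both steps were called by limma (3.76 ± 0.42, adjusted p = 5.81e-08, and 2.87 ± 0.42, adjusted p = 3.93e-06).

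At day 6 CDH11 was still present in CD43+ cells, at 2743, 3108 and 6460 against 4710, 7766 and 7152 in CD43- cells, and the populations overlapped (-0.75 ± 0.42, limma adjusted p = 0.139). By day 9 the CD43+ cells were at 20, 37 and 119 and the CD43- cells at 8793, 6912 and 9886. That difference was -7.53 ± 0.42 (limma adjusted p = 2.25e-14), and the fall within CD43+ cells from day 6 to day 9 was -6.38 ± 0.42 (limma adjusted p = 1.53e-11). The highest CD43+ value of CDH11 on both days was in replicate 3. Replicate 3 also had the highest summed mesenchymal markers of the CD43+ cells, 156322 against 59694 and 74808 at day 6 and 22264 against 4382 and 8653 at day 9, and their part in the result was not tested. The day 6 sum of CD43+ cells was mostly collagen, with means of 58647 for COL1A2 and 24889 for COL1A1, against 48056 and 30667 in CD43- cells, and 7 of the 10 markers were called lower, among them LUM (189 against 24442) and POSTN (61 against 13783). Such collagen levels lie near the top of the value set that every sample shares, where they follow rank. COL1A2 had the same mean of 48056 in every CD43- population, and COL3A1 was at the highest value, 90700, in each of them.

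CDH10 and CDH7 (brain cadherins of type II) were at 302, 784 and 790 and at 139, 292 and 176 in day 12 CD43- cells, and at 3, 4 and 12 and at 12, 6 and 20 in CD43+ cells. Both were called lower in CD43+ cells (-6.49 ± 0.55, limma adjusted p = 4.91e-11, and -3.96 ± 0.55, limma adjusted p = 3.76e-07). Both also rose within CD43- cells from day 9 to day 12, by 2.41 and 2.27 on the log2 scale (limma adjusted p = 0.00118 and 0.00193), where 4.52% of all genes were called higher. For CDH7 that rise fell under the fold threshold without replicate 1 at day 9 (1.99) or replicate 2 at day 12 (1.97). CDH18 rose at the same step, from 10, 6 and 12 to 32, 64 and 92, and was back at 12, 6 and 10 at day 16. Summed neural markers in day 12 CD43- cells were 5907, 14341 and 4607, highest in replicate 2, which also had the highest CDH7. CDH10, by a small margin, and CDH18 were highest in replicate 3, which had the lowest neural sum. The part of these markers in the rises was not tested.

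CDH8 (a type II cadherin of brain) was at 256, 202 and 818 in day 6 CD43- cells and 144, 188 and 223 in CD43+ cells, and overlapped between them. CDH24 was at 929, 1092 and 1387 and at 372, 407 and 498 on that day, with no overlap and a difference of -1.41 ± 0.21 (limma adjusted p = 3.17e-06), short of the fold threshold. CDH22 was listed at 0 in all 3 day 16 CD43+ samples and at 106, 75 and 76 in CD43- cells. CDH12 and CDH20 were at or below 504 and 44 in every sample, and CDH12 was highest in CD43- cells of day 16 (264, 504 and 360).

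CDH6 (kidney cadherin, also of type II) went the other way for a short time. It was at 4, 4 and 2 in day 6 CD43+ cells and at 136, 130 and 177 in day 9 CD43+ cells, while day 9 CD43- cells were at 12, 6 and 6. The difference at day 9 was 4.10 ± 0.58 (limma adjusted p = 6.86e-07) and the rise from day 6 was 5.13 ± 0.58 (limma adjusted p = 1.15e-07). By day 12 the values were 24, 50 and 34 in CD43+ and 45, 8 and 8 in CD43- cells, and they overlapped.

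The atypical cadherins, which lack the usual catenin-binding tail or carry extra repeats, held the other genes that were higher in CD43+ cells. CDH23 (chr10:71396934-71815947 on GRCh38, a tip-link cadherin of hair cells) was at 22, 14 and 22 in day 6 CD43+ cells, 51, 52 and 50 at day 9, 280, 224 and 204 at day 12 and 344, 307 and 376 at day 16. The CD43- cells were at 5, 16 and 12, at 10, 18 and 25, at 30, 24 and 28 and at 42, 44 and 42 on these days. The populations were apart from day 9 on, and the difference was called at day 12 (3.06 ± 0.30, limma adjusted p = 8.06e-10) and day 16 (2.97 ± 0.30, limma adjusted p = 1.48e-09). CDH23 was also present before sorting, at 186, 156 and 200 at day 2.

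CDH26 (an epithelial cadherin known from allergic inflammation) was at 66, 52 and 38 in day 6 CD43+ cells and 28, 14 and 2 in CD43- cells. The call at day 6 (2.24 ± 0.49, limma adjusted p = 0.000425) was lost without replicate 3 of the CD43- cells, at 1.31. It was highest at day 9, with 147, 92 and 144 in CD43+ and 10, 6 and 14 in CD43- cells (3.58 ± 0.49, limma adjusted p = 4.3e-07). CDH26 was at 25, 26 and 28 against 8, 10 and 14 at day 12, with no overlap and a difference of 1.26 ± 0.49 (limma adjusted p = 0.0255) below the fold threshold.

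CDH13 (T-cadherin, a membrane-anchored cadherin of vessels and heart) varied between replicates of day 6 CD43- cells. It rose from 18, 19 and 16 at day 2 to 245, 330 and 296 at day 4 (3.96 ± 0.48, limma adjusted p = 2.39e-07) and was at 2687, 1598 and 530 in day 6 CD43- cells. The order of these 3 replicates was also that of the summed endothelial markers, 122451, 90052 and 37844, whose part in the result was not tested. In CD43+ cells CDH13 was at 379, 176 and 142 at day 6 and at 7, 8 and 24 at day 9. The differences by CD43 were -2.63 ± 0.48 (limma adjusted p = 5.46e-05) and -6.34 ± 0.48 (limma adjusted p = 1.07e-11). CDH17 (intestinal cadherin) was at or below 62 in every sample, and its call at day 6 (4, 10 and 4 against 0, 2 and 0) was lost without replicate 2 of the CD43- cells or without replicate 1 or 3 of the CD43+ cells.

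**Figure D2:**
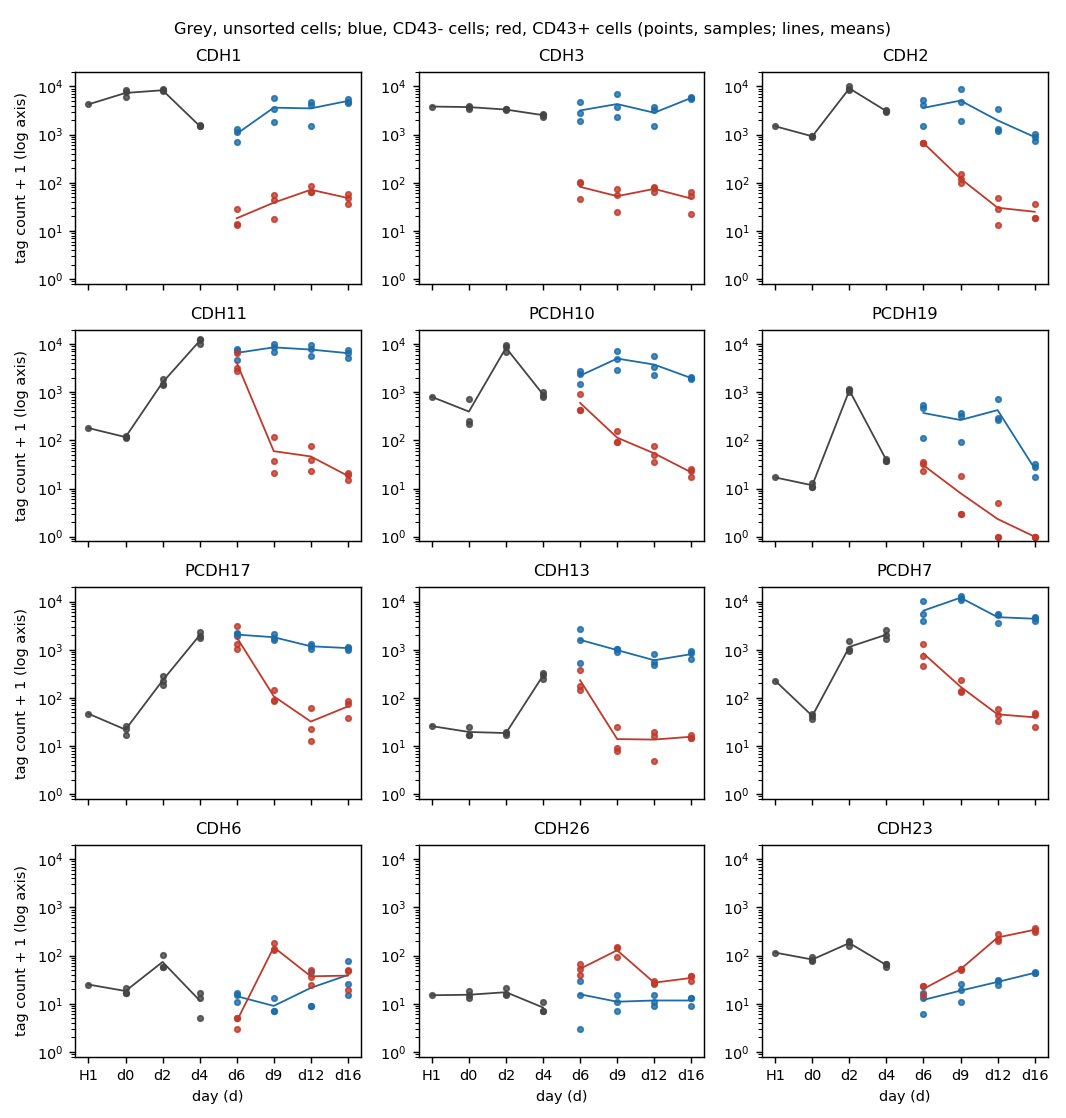
Values of 12 cadherins and protocadherins in every sample (value + 1 on a logarithmic axis) by day, with unsorted cells in grey, CD43- cells in blue and CD43+ cells in red, 1 point per sample and lines through the means. CDH2, PCDH10 and PCDH19 peak at day 2 before sorting, CDH11 and PCDH17 are high in both day 6 populations and then low in CD43+ cells, and CDH23 rises in CD43+ cells.

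The delta-1 protocadherins (PCDH1, PCDH7, PCDH9 and the PCDH11 pair) have long cytoplasmic tails. PCDH7 (chr4:30720415-31146805 on GRCh38) rose from 42, 36 and 46 at day 0 to 1020, 1504 and 921 at day 2 (4.74 ± 0.33, limma adjusted p = 1e-11). It reached 10840, 13324 and 12014 in day 9 CD43- cells. In CD43+ cells it went from 451, 748 and 1301 at day 6 to 134, 138 and 238 at day 9 and 48, 44 and 24 at day 16. The difference by CD43 was called at each day, from -2.98 ± 0.33 at day 6 (limma adjusted p = 3.45e-08) to -6.85 ± 0.33 at day 16 (limma adjusted p = 7.4e-16).

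PCDH1 (a protocadherin of epithelia and vessels) was high in undifferentiated cells (5250) and at day 0 (5193, 6140 and 5783) and was at 452, 480 and 394 at day 4. It was then at 2186, 1318 and 426 in day 6 CD43- cells and 304, 164 and 99 in CD43+ cells (-2.65 ± 0.51, limma adjusted p = 9.8e-05). The CD43- replicates again stood in the order of their endothelial marker sums, a relation that was not tested. PCDH11X went from 514, 576 and 398 at day 0 to 50, 68 and 44 at day 4 and to 10, 15 and 1 in day 12 CD43+ cells; it has a near-identical copy, PCDH11Y, and reads may have been split between them. PCDH9 (a protocadherin of brain) was not called in any of the 4 CD43 comparisons. At day 12 it was at 75, 108 and 74 in CD43+ and 522, 138 and 202 in CD43- cells, with no overlap (-1.52 ± 0.41, limma adjusted p = 0.00177, under the fold threshold). At day 16 it was at 112, 136 and 136 against 202, 129 and 150, with overlap.

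The delta-2 protocadherins (PCDH8, PCDH10, PCDH17, PCDH18 and PCDH19) are known from paraxial mesoderm and brain. Between days 0 and 2, 11 of the 85 genes were called higher and 2 lower, where 4.4% of all genes were higher and 3.48% lower (7.88% together), and 4 of the 11 were delta-2 genes out of 5. PCDH19 (chrX:100291644-100410273 on GRCh38) was at 10, 10 and 12 at day 0, 1108, 1176 and 994 at day 2 and 40, 37 and 36 at day 4. Neither step overlapped, and they were called at 6.55 ± 0.65 (limma adjusted p = 8.15e-09) and -4.82 ± 0.65 (limma adjusted p = 1.31e-06).

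PCDH10 (also named OL-protocadherin) had the same form, with 710, 254 and 220 at day 0, 8682, 9499 and 6920 at day 2 and 792, 1020 and 880 at day 4. PCDH8 (paraxial protocadherin) rose from 3, 0 and 8 to 146, 154 and 141 and stayed, at 231, 197 and 198 at day 4. PCDH17 climbed at both steps, from 16 to 25 at day 0 through 228, 280 and 181 to 1919, 1796 and 2290 at day 4 (3.39 ± 0.38 and 3.13 ± 0.38, limma adjusted p = 8.4e-08 and 2.81e-07). PCDH18 was at 372, 395 and 348 at day 2 and at 1618, 1188 and 1618 at day 4. In undifferentiated H1 cells PCDH18 was at 1688 and PCDH10 at 798.

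After sorting, 3 of the 5 delta-2 genes were called lower in CD43+ cells at day 6 and all 5 on each later day. The 2 that were not called at day 6 were PCDH10 and PCDH17. PCDH17 was at 1032, 1340 and 3086 in day 6 CD43+ and 2210, 2078 and 1912 in CD43- cells, with overlap (-0.35 ± 0.38, limma adjusted p = 0.478), and at 84, 90 and 148 against 1746, 1564 and 2158 at day 9 (-4.11 ± 0.38, limma adjusted p = 5.68e-10). As for CDH11, its highest day 6 CD43+ value was in replicate 3, with the highest mesenchymal sum. PCDH10 was at 430, 428 and 936 against 2692, 2414 and 1500 at day 6, without overlap (-1.94 ± 0.39, limma adjusted p = 0.000186), and at 24, 22 and 16 against 1905, 1930 and 2050 at day 16 (-6.52 ± 0.39, limma adjusted p = 6.53e-14).

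PCDH18 was lower in CD43+ cells on every day, by -6.67 ± 0.45 at day 9 (14, 18 and 48 against 2959, 1166 and 4244, limma adjusted p = 1.15e-12). Between days 12 and 16 it came back in CD43+ cells, from 70, 16 and 46 to 160, 171 and 233 (2.28 ± 0.45, limma adjusted p = 0.000232), a rise that was 1.69 without replicate 2 of day 12. PCDH19 in CD43+ cells was at 22, 34 and 32 at day 6, 2, 2 and 17 at day 9 and listed at 0 in all 3 samples at day 16. In CD43- cells it fell from 297, 262 and 712 at day 12 to 27, 16 and 32 at day 16 (-3.93 ± 0.65, limma adjusted p = 2.32e-05), 1 of 3 genes of the 85 called lower at that step, where 5.97% of all genes were.

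Among the remaining non-clustered genes, PCDH12 (VE-cadherin-2, a protocadherin of endothelium) rose from 46, 32 and 28 at day 2 to 174, 258 and 181 at day 4 and to 2868, 1128 and 370 in day 6 CD43- cells. The last rise (2.40 ± 0.50, limma adjusted p = 0.000326) was 1.68 without replicate 1, the sample with the highest endothelial marker sum. PCDH12 was not lost from CD43+ cells, with 662, 374 and 367 at day 6 and 138, 137 and 238 at day 16, against 840, 921 and 1073 in day 16 CD43- cells (-2.50 ± 0.50, limma adjusted p = 7.85e-05). PCDH20 was at 49, 45 and 16 in CD43- and 20, 36 and 34 in CD43+ cells at day 6, then at 112, 428 and 210 against 2, 8 and 4 at day 12 (-5.40 ± 0.48, limma adjusted p = 1.51e-10). PCDH15, the partner of CDH23 in the tip link, was at or below 18 in every sample.

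**Figure D3:**
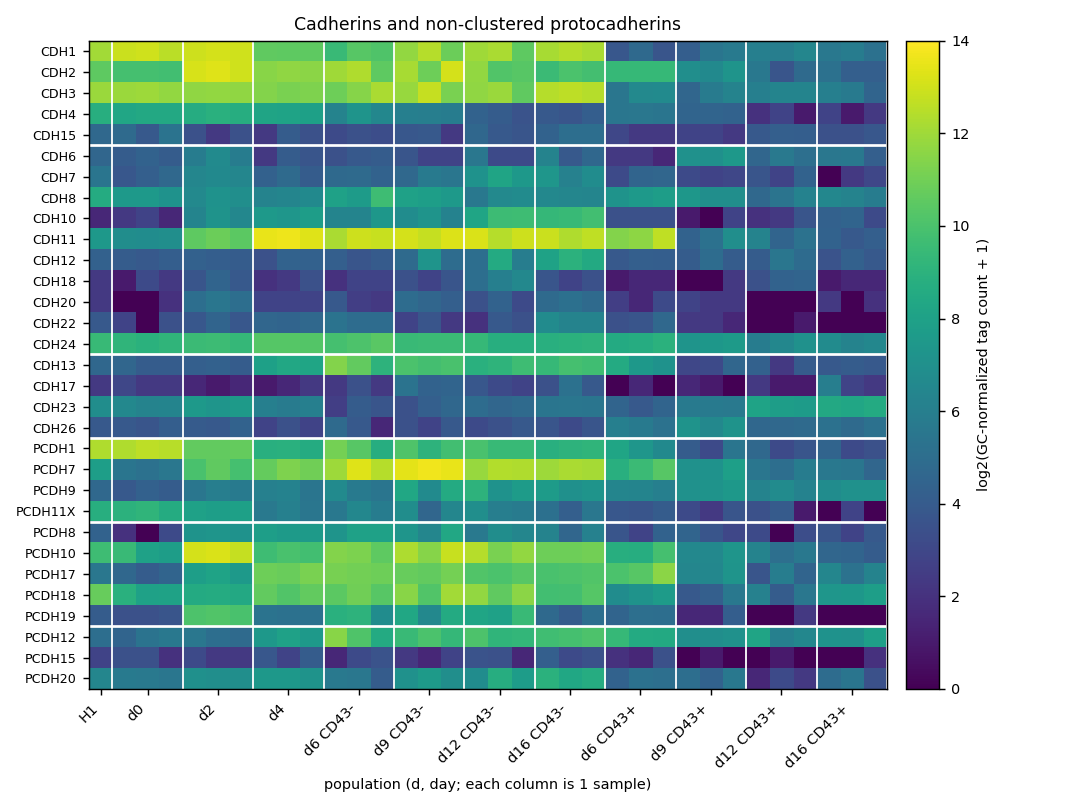
Heat map of the non-clustered cadherins and protocadherins (rows) in all 34 samples (columns, by population), coloured by log2(value + 1). The CD43+ columns from day 9 on are darker (lower) than the CD43- columns for most rows, and CDH23 is brighter there at days 12 and 16.

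The clustered protocadherins occupied chr5:140786136-141012347 (alpha), chr5:141051135-141249365 (beta) and chr5:141330571-141512981 (gamma) on GRCh38. In the alpha and gamma arrays every variable exon is joined to the same constant exons, so that all 105 pairs of alpha loci and all 231 pairs of gamma loci overlapped, and the reads of single alpha or gamma genes are uncertain. None of the 120 pairs of beta loci overlapped, since beta genes are single exons, but their coding sequences are alike. Upstream of many of the variable exons lies a conserved element with the core CGCT, a place where the chromatin factor CTCF is known to bind. Only the letters of that core were searched here, and a match need not be the whole element.

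The letters CGCT were searched in RefSeq promoters (GRCh38.p14, 250 bases before to 50 after each start), which were found for 47 of the 53 clustered and 21 of the 32 other genes. On either strand, CGCT was in 51 of 52 clustered windows (98.1%) and in 70% of all 35116 windows. On the gene's own strand and between 100 and 30 bases before the start, it was in 43 of 52 clustered windows (82.7%), in 10 of 36 windows of the other cadherins and protocadherins (27.8%) and in 20.8% of all windows. That stretch was chosen after the letters had been seen. By array, the shares were 12 of 13 for alpha, 12 of 14 for beta and 19 of 25 for gamma. For each array, the 30 bases around the first such CGCT (in capitals) are given for the 3 genes with the largest fall at day 12, all on the plus strand, followed by PCDHB1, the 1 beta gene not called lower.
PCDHAC2, chr5:140966368-140966397: agcagtccgggttCGCTgtccgccacttcg
PCDHA12, chr5:140875247-140875276: agtcacatgatgtCGCTctacactcagaag
PCDHA6, chr5:140827900-140827929: agccgcatgatgtCGCTgtctaccatgaag
PCDHB16, chr5:141182313-141182342: gaacgcgtggtggCGCTgcaggttaagatg
PCDHB12, chr5:141208646-141208675: agacgcgtggtggCGCTgcaggataatatc
PCDHB10, chr5:141192302-141192331: ggccacacggtggCGCTgcaggctaaagag
PCDHGB4, chr5:141387620-141387649: tgactctgggcgcCGCTgttggccaaagtg
PCDHGB6, chr5:141407927-141407956: agcctctgggcgcCGCTgtcggccagtgca
PCDHGB7, chr5:141417610-141417639: agtgcagagcaagCGCTgacgccggggatc
PCDHB1, chr5:141051277-141051306: tggggagttgagtCGCTcaatgcaaatttt

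A match of these letters is a description and not a measured binding site. PCDHA9, PCDHB5, PCDHB8 and PCDHGB2 had a promoter window but no CGCT in that stretch, and PCDHB5 (-3.87), PCDHB8 (-3.88) and PCDHGB2 (-2.94) were called lower in CD43+ cells at day 12 by limma. PCDHA9 was not called (-1.30 ± 0.47, limma adjusted p = 0.0168), and with a pseudocount of 10 the calls of PCDHB8 (-1.61) and PCDHGB2 (-0.91) were lost.

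Few clustered genes changed in unsorted cells. Between days 2 and 4 none of the 53 was called in either direction, and at an unadjusted p under 0.05 limma gave 5 higher and 4 lower, where 4.97% and 4.53% of all genes were called higher and lower (9.5% together). Between days 0 and 2, 1 was called higher and 2 lower. The isoforms that follow the variable alpha and gamma genes at the end of each array, called C-type, were among these. PCDHGC4 rose from 60, 62 and 66 to 317, 333 and 276 (2.28 ± 0.37, limma adjusted p = 1.71e-05), and PCDHAC1 fell from 212, 168 and 96 to 26, 32 and 38 (-2.22 ± 0.44, limma adjusted p = 0.000263). The fall of PCDHAC1 was 1.97 on the log2 scale without replicate 1 of day 0.

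PCDHAC2 had the largest difference of all 85 genes at day 12. It was at 47, 68 and 60 at day 2, and in CD43- cells it was at 196, 218 and 194 at day 6, 620, 1133 and 527 at day 9, 620, 1244 and 714 at day 12 and 1075, 1028 and 1024 at day 16. In CD43+ cells it was at 20, 32 and 34, then 6, 2 and 8, then 0, 1 and 0, then 19, 14 and 12. The populations did not overlap on any day, and the difference was -2.81 ± 0.35 at day 6 (limma adjusted p = 1.96e-07) and -6.97 ± 0.35 at day 9 (limma adjusted p = 2.83e-15). The day 12 difference, -9.35 ± 0.35 (limma adjusted p = 3.79e-18), rested on values at or near 0 and was -6.33 with a pseudocount of 10. With PCDHA12, PCDHAC2 was 1 of the 2 clustered genes called at day 6.

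PCDHA12 was at 492, 562 and 523 in day 6 CD43- and 80, 68 and 75 in CD43+ cells (-2.81 ± 0.52, limma adjusted p = 6.17e-05). Its day 12 values were 274, 290 and 422 against 14, 1 and 1. PCDHA10 gave smaller and more even differences, with 567, 492 and 378 against 282, 244 and 260 at day 6 (-0.85 ± 0.18, limma adjusted p = 0.000347, under the fold threshold) and 389, 271 and 294 against 42, 34 and 30 at day 12 (-3.13 ± 0.18, limma adjusted p = 3.06e-14). Over the alpha array, 2, 8, 8 and 10 of 15 genes were called lower at days 6, 9, 12 and 16.

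The beta array, whose genes do not share exons, had the most genes called at day 12. Of its 16 genes none was called at day 6 (limma, with 5 at an unadjusted p under 0.05), while 10, 15 and 13 were called lower at days 9, 12 and 16. PCDHB16 was at 356, 280 and 207 in CD43- and 178, 184 and 187 in CD43+ cells at day 6, with all CD43+ values below (-0.58 ± 0.49, limma adjusted p = 0.339). At day 12 it was at 346, 254 and 380 against 4, 2 and 2 (-6.50 ± 0.49, limma adjusted p = 5.46e-12). The intermediate day 9 values of CD43+ cells were 40, 52 and 48.

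PCDHB12 went from 64, 60 and 78 in CD43+ cells at day 6 to 10, 14 and 12 at day 9 and was listed at 0 in all 3 samples at day 12, when CD43- cells were at 85, 58 and 68. PCDHB5 was at 323, 315 and 328 in CD43+ cells at day 6 and 210, 208 and 186 at day 9, and fell to 12, 24 and 34 at day 12 (-3.17 ± 0.26 between days 9 and 12, limma adjusted p = 1.19e-10). PCDHB2 took smaller steps, with 808, 770 and 786, then 442, 462 and 467, then 262, 246 and 268, then 300, 248 and 294 in CD43+ cells. It had the smallest of the 15 falls called in the beta array at day 12, with CD43- cells at 1340, 897 and 1114 (-2.09 ± 0.14, limma adjusted p = 3.38e-13), and the difference was -1.95 without replicate 1 of those CD43- cells.

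PCDHB1, at the start of the array, was the 1 beta gene that was not called lower on any day. It was low throughout, between 0 and 24. In day 16 cells it was listed at 0 in the 3 CD43- samples and at 2, 4 and 2 in the CD43+ samples. At day 12 the values were 9, 14 and 4 and 24, 14 and 14.

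In the gamma array, 0, 11, 12 and 15 of 22 genes were called lower at days 6, 9, 12 and 16, with 7 at an unadjusted p under 0.05 by limma at day 6. PCDHGC3, the C-type gene used in many tissues, was at 799, 917 and 763 at day 0, 2480, 2466 and 2664 at day 4 and 3088, 3167 and 3210 in day 6 CD43- cells. The CD43+ cells were at 1180, 1280 and 1510 at day 6 (-1.26 ± 0.13, limma adjusted p = 7.79e-09, under the fold threshold), 590, 580 and 778 at day 9, 476, 374 and 370 at day 12 and 396, 332 and 412 at day 16 (-3.36 ± 0.13, limma adjusted p = 5.41e-18). No CD43+ value of PCDHGC3 was as high as any CD43- value on these days.

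PCDHGB7 was at 1400, 1366 and 1336 in CD43- and 548, 481 and 692 in CD43+ cells at day 6, and at 1984, 1803 and 1796 and 112, 152 and 152 at day 16 (-3.75 ± 0.20, limma adjusted p = 6.28e-15). PCDHGB4 in CD43- cells was at 806, 1065 and 767 at day 12 and at 2065, 2298 and 1992 at day 16, while CD43+ cells had 32, 70 and 32 and then 114, 91 and 88. PCDHGC5 and PCDHGC4 were also called lower, at 6, 2 and 6 and at 4, 8 and 12 in day 12 CD43+ cells.

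**Figure D4:**
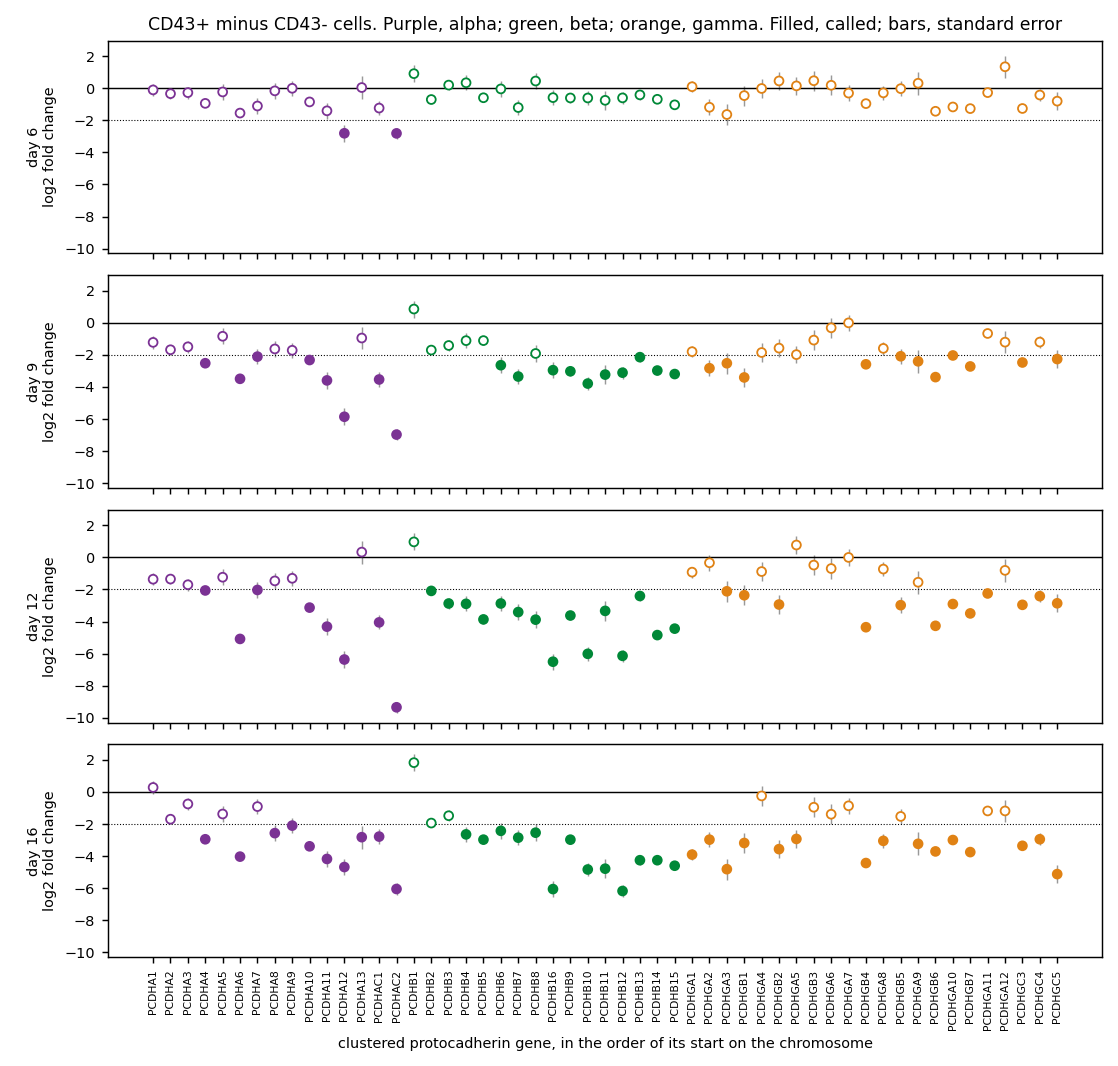
Differences between CD43+ and CD43- cells (log2, CD43+ minus CD43-) of the 53 clustered protocadherins in array order at days 6, 9, 12 and 16, with the arrays in separate colours, filled points for called genes and bars for the standard error. At day 6 nearly all points lie above the dotted line of the fold threshold, but many lie below 0, such as PCDHA6 (-1.55) and PCDHGB6 (-1.43). Later nearly all lie below 0, PCDHAC2 reaches -9.35 and PCDHB1 stays at or above 0.

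Within CD43+ cells the decline of the clustered genes was spread over 2 steps. From day 6 to day 9, 15 of the 53 were called lower and 0 higher by limma, with 47 lower and 0 higher at an unadjusted p under 0.05; of all genes 3.97% were called lower and 3.56% higher (7.53% together). From day 9 to day 12, 19 were called lower and 0 higher, with 40 lower and 1 higher at an unadjusted p under 0.05, where 6.54% of all genes were called lower and 8.45% higher (15% together). From day 12 to day 16, 4 were called higher and 2 lower, against 3.79% and 5.26% of all genes (9.05% together). PCDHGB5 had the largest of these rises, from 2, 0 and 0 to 22, 22 and 17. Over these CD43+ steps 27, 28 and 10 of all 85 genes were called, and with a pseudocount of 10 they became 11, 3 and 1.

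In CD43- cells some clustered genes were lower at day 12 than on both neighbouring days. Between days 9 and 12, 12 clustered genes were called lower and 0 higher by limma, with 30 lower and 1 higher at an unadjusted p under 0.05, where 2.8% of all genes were called lower (7.33% in either direction), and 9 of the 12 were gamma genes. Between days 12 and 16, 6 were called higher and 1 lower (4.46% of all genes called higher, 10.4% in either direction). These included genes of low level. PCDHGA2 went from 10, 6 and 13 to 0, 0 and 1 and back to 10, 10 and 3, and PCDHGA3 from 19, 24 and 16 to 2, 8 and 2 and back to 26, 24 and 32. The fall of PCDHGA3 was -1.97 without replicate 1 or replicate 3 of day 12, under the fold threshold. PCDHGC4 also fell, from 186, 180 and 190 to 76, 20 and 54, and this call was lost without replicate 2 of day 12 (-1.52). With only the populations compared in the fit, the 15 genes of the family called from day 9 to 12 became 9, and with a pseudocount of 10 they became 3. Between days 6 and 9 no clustered gene was called in CD43- cells, with 3 higher and 1 lower at an unadjusted p under 0.05 by limma, and 1.75% of all genes were called, 1.1% higher and 0.657% lower.

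**Figure D5:**
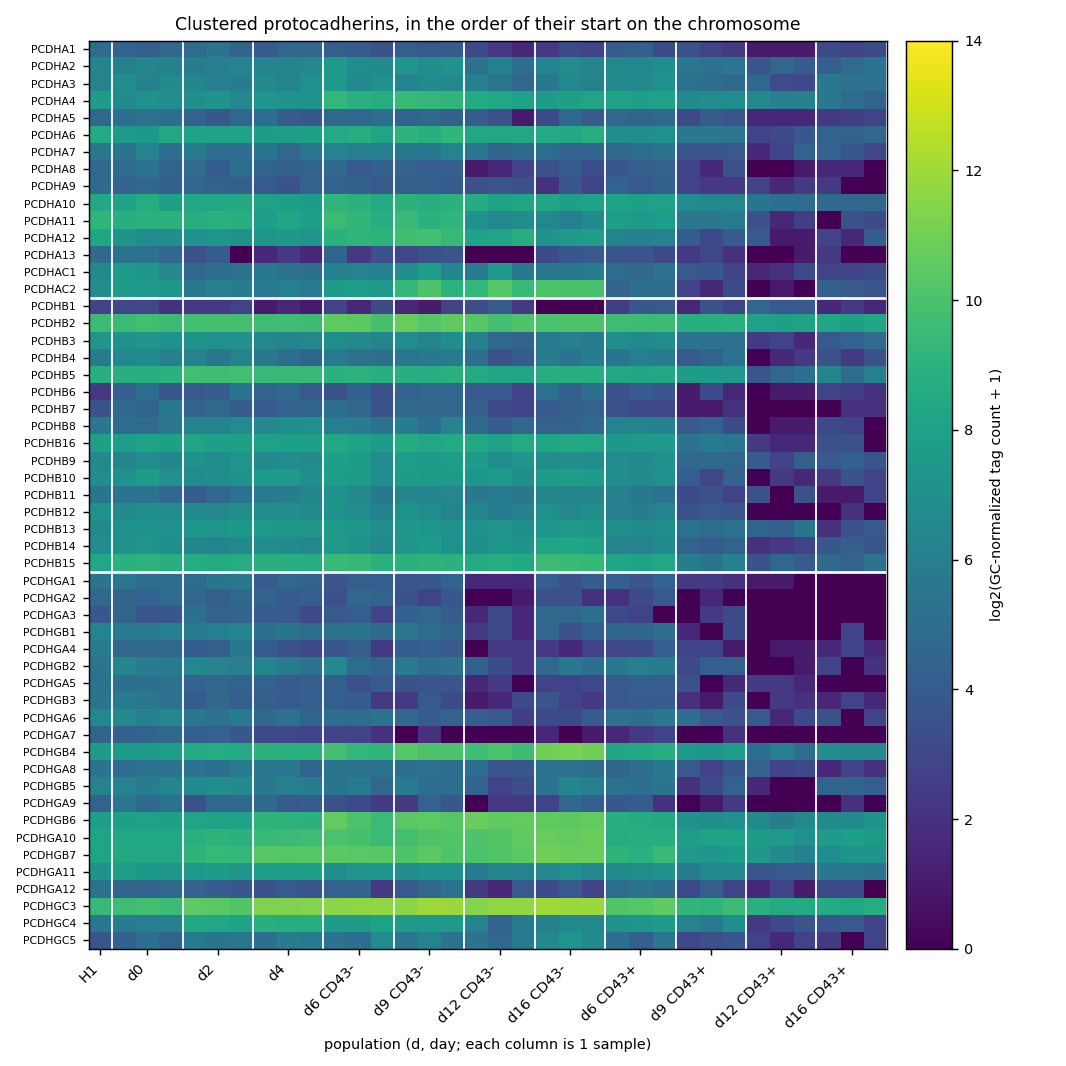
Heat map of the 53 clustered protocadherins (rows, in array order) in all 34 samples (columns, by population), coloured by log2(value + 1) from dark (0) to bright. The CD43+ columns at days 9, 12 and 16 are darker than the CD43- columns for most genes, most so at day 12.

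In the step from day 4 to sorted day 6 cells, 4 genes of the family were higher and 2 lower in CD43- cells, where 4.94% and 2.77% of all genes were called (7.71% together), and 2 were higher and 8 lower in CD43+ cells, where 6.8% and 7.73% were (14.5% together). None of the CD43- calls was a clustered gene, with 15 higher and 3 lower at an unadjusted p under 0.05 by limma. In CD43+ cells 4 of the 8 that fell were the type I cadherins CDH1, CDH2, CDH3 and CDH4. Between days 2 and 4, 4 genes of the family were called higher and 7 lower, where 4.97% and 4.53% of all genes were (9.5% together).

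Partners of the cadherins were counted from lists. Of 18 catenins and junction partners tested, 3, 6, 7 and 8 were called lower and 0 higher in CD43+ cells by limma at days 6, 9, 12 and 16, where 7.85%, 12.8%, 14.4% and 13.6% of all genes were lower. CTNNB1 (beta-catenin) had means of 15834 in CD43- and 8924 in CD43+ cells at day 12 (-0.81 ± 0.12, limma adjusted p = 1.34e-06) and was not called. PKP2, a desmosomal plakophilin, had means of 3375 and 256 (-3.67 ± 0.34, limma adjusted p = 3.1e-10), and NECTIN3, a junction protein that binds afadin, had means of 752 and 31 (-4.71 ± 0.28, limma adjusted p = 3.72e-14).

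Of 22 other cadherin superfamily genes tested, 10 were called lower and 2 higher at day 12, where 14.4% of all genes were lower and 11.8% higher. Desmosomal DSG2 had means of 8879 in CD43- and 178 in CD43+ cells, and DSC3 3864 and 35. FAT1, FAT3 and FAT4, giant cadherins of tissue polarity, were called lower, and FAT2 was not (0.77 ± 0.57, limma adjusted p = 0.24).

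Of the 6 factors known to repress CDH1, 5 were called higher from day 0 to day 2, when CDH1 was not called and 4.4% of all genes were higher. SNAI1 rose from a mean of 215 to 2644 (3.62 ± 0.20, limma adjusted p = 1e-13) and ZEB2 from 5 to 203. From day 2 to day 4, when CDH1 fell, 4 were called higher and SNAI1 lower (4.97% and 4.53% of all genes), SNAI2 with means of 374 and 2857 and ZEB2 with 203 and 3061. In day 12 CD43+ cells, where CDH1 was low, SNAI2, ZEB1 and TWIST1 were called lower than in CD43- cells, SNAI2 with means of 6 and 2768. ZEB2 had means of 10610 in CD43+ and 3704 in CD43- cells, 1.59 ± 0.46 on the log2 scale (limma adjusted p = 0.00361), under the fold threshold at day 12. At day 16 it was called higher, with means of 17393 and 1781 (3.29 ± 0.46, limma adjusted p = 5.28e-07), and SNAI2, ZEB1 and TWIST1 were again called lower.

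Of 12 factors known to act at the clustered arrays, 0 were called in either direction by limma at days 6, 12 and 16 and 1 was higher in CD43+ cells at day 9, where 8.65% of all genes were. CTCF had means of 1056 in CD43- and 1357 in CD43+ cells at day 12 (0.36 ± 0.09, limma adjusted p = 0.00117). SMCHD1, a chromatin protein that acts on the arrays, had means of 2033 and 4282 (1.07 ± 0.11, limma adjusted p = 1.68e-09). DNMT3B, a DNA methyltransferase, was the gene called at day 9, with means of 734 in CD43- and 4189 in CD43+ cells (2.51 ± 0.21, limma adjusted p = 6.41e-11).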

How the data were processed

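Total RNA sequencing of 34 samples was taken from 1 deposited table of 20255 genes on GRCh38 (hg38). Its values are a score (tag counts corrected for GC content) that the authors obtained by alignment and RSEM estimation followed by full quantile GC normalization in EDASeq, rounded to whole numbers and deposited without raw counts. The submitters' processing notes also name bcl2fastq, STAR 2.7 and Bowtie2. The deposited GC percent of each gene was not used in a test, and the source of it was not given. Every sample holds the same sorted values, so depth is unknown and no counting interval is given. Use of strand in counting was not given in the sources used here. Libraries were sequenced at 2 companies, and which sample went where was not given.

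A limma 3.58.1 model (R 4.3.3, trended empirical Bayes) was fitted to log2(value + 1) in 1 fit of 33 samples over genes of at least 10 in at least 3 samples, since a count test does not apply to such values. The undifferentiated sample has no replicate and entered no test. Genes were called at an adjusted p (Benjamini-Hochberg) under 0.05 and a fold change above 4. Genes were named from a list by role, with up to 3 of the largest rises and falls without overlap per comparison. CDH12, CDH20, PCDH11X, PCDHA6, PCDHA9, PCDHA11, PCDHA12, PCDHB8, PCDHB10, PCDHGB2, PCDHGB4 and PCDHGB6 were named after their values were seen. The genes and all lists were chosen with earlier results of these data known. Same-numbered CD43+ and CD43- samples deviated together at day 6 (correlations 0.109 to 0.199). The fit reported here used no pairing, and the replicate numbers entered only as an alternative given below. In every other comparison the lowest correlation was under 0.1. The fit was tested on simulated data. Promoters came from RefSeq GRCh38.p14 (Python 3.11.15, pandas 2.3.3).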

Additional observations from a re-analysis of the deposited data

Results flagged for a closer look

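The difference between CD43+ and CD43- cells (log2, CD43+ minus CD43-) itself changed from day 6 to day 12 for the following named genes, by limma's test of that change. It moved upwards for CDH6 (2.94, adjusted p = 0.00459) and CDH23 (2.20, adjusted p = 0.000118). Among the cadherins it moved downwards for CDH2 (-3.80, adjusted p = 3.41e-05), CDH7 (-3.39, adjusted p = 0.000775), CDH10 (-3.28, adjusted p = 0.00109), CDH11 (-6.77, adjusted p = 6.84e-10), CDH13 (-3.03, adjusted p = 0.000674) and CDH20 (-3.18, adjusted p = 0.00149). Among the non-clustered protocadherins it moved downwards for PCDH1 (-3.10, adjusted p = 0.00091), PCDH7 (-3.74, adjusted p = 3.37e-07), PCDH10 (-4.17, adjusted p = 8.68e-07), PCDH17 (-5.13, adjusted p = 2.09e-08), PCDH18 (-2.67, adjusted p = 0.00128), PCDH19 (-4.47, adjusted p = 0.000276) and PCDH20 (-5.23, adjusted p = 6.08e-07).

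In the alpha array it moved downwards for PCDHA6 (-3.54, adjusted p = 4.94e-10), PCDHA10 (-2.28, adjusted p = 6.2e-08), PCDHA11 (-2.91, adjusted p = 0.0019), PCDHA12 (-3.56, adjusted p = 0.000269), PCDHAC1 (-2.82, adjusted p = 0.000616) and PCDHAC2 (-6.53, adjusted p = 5.18e-11). In the beta array it moved downwards for PCDHB5 (-3.28, adjusted p = 4.88e-08), PCDHB8 (-4.34, adjusted p = 2.8e-05), PCDHB10 (-5.41, adjusted p = 3.45e-08), PCDHB12 (-5.54, adjusted p = 2.48e-09) and PCDHB16 (-5.92, adjusted p = 1.07e-07). In the gamma array it moved downwards for PCDHGB2 (-3.40, adjusted p = 0.00126), PCDHGB4 (-3.40, adjusted p = 8.68e-10), PCDHGB5 (-2.96, adjusted p = 0.000905), PCDHGB6 (-2.83, adjusted p = 2.62e-09), PCDHGB7 (-2.22, adjusted p = 4.5e-07) and PCDHGC5 (-2.06, adjusted p = 0.0355). For CDH23 the change came to 1.88 when day 6 CD43- replicate 2 was left out and to 1.99 when day 6 CD43+ replicate 2 was, and for PCDHGB7 it came to -1.92 when day 12 CD43+ replicate 3 was, each under the fold threshold. The call of PCDHGC5 was the least stable. It was lost under both other pseudocounts (-2.31 and -1.06), under median-of-ratios scaling (-1.99), with only the compared populations in the fit (adjusted p = 0.0684), and without day 6 CD43- replicate 1 (-1.87) or 2 (-1.72), day 6 CD43+ replicate 1 (-1.96) or 3 (-1.78), day 12 CD43- replicate 1 (-2.01) or 3 (-1.80), or day 12 CD43+ replicate 2 (-1.65). With a pseudocount of 10 the calls of CDH6 (1.58), CDH20 (-0.93), PCDHGB2 (-1.26), PCDHA11 (-1.66), PCDHA12 (-1.88), PCDHAC1 (-1.63) and PCDHGB5 (-0.95) were also lost. Genes at or near 0 in day 12 CD43+ cells, such as PCDHAC2 and PCDHB12, give values that depend on the pseudocount.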

How the results depend on the processing

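No named gene reversed its direction under any alternative in a comparison where limma had called it. Reversals of uncalled differences were not counted in full. The counts of genes called, out of 85, were 15, 52, 59 and 62 between CD43+ and CD43- cells at days 6, 9, 12 and 16, 13 from day 0 to 2, 11 from day 2 to 4, 6 and 10 from day 4 to day 6 CD43- and CD43+ cells, 2, 15 and 11 over the later steps in CD43- cells, 27, 28 and 10 over those in CD43+ cells, and 41 for the change of the CD43 difference. With a pseudocount of 10 they became 41 at day 16, 3 from day 4 to day 6 CD43- cells, 0, 3 and 2 over the CD43- steps, 11, 3 and 1 over the CD43+ steps, and 27 for the change of the difference; the 0 stands beside 12 higher and 3 lower at an unadjusted p under 0.05 in limma's fit with a pseudocount of 1. With a pseudocount of 0.1 the last CD43+ step had 20. With values of at least 100 required, fewer genes were tested, and the CD43- steps had 1, 4 and 2 and the last CD43+ step 4. With a fold above 2, counts were 31 at day 6, 22 and 18 over the unsorted steps, 15 and 25 from day 4 to day 6 CD43- and CD43+ cells, 6, 29 and 22 over the CD43- steps and 56, 52 and 31 over the CD43+ steps. With only the compared populations in the fit, the CD43- steps had 0, 9 and 6. Other causes of these moves were not tested.

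With the replicate number as a block, the 15 counts stayed at 15, 52, 59, 62, 13, 11, 6, 10, 2, 15, 11, 27, 28, 10 and 41, and no call of a named gene changed. Pairing within the day 6 populations alone, added after seeing the data, gave 14 at day 6. Leaving out each replicate in turn gave 12 to 16, 49 to 54, 57 to 62 and 61 to 64 between CD43+ and CD43- cells, 12 to 16 and 11 to 12 over the unsorted steps, 4 to 7 and 10 to 12 from day 4 to day 6 CD43- and CD43+ cells, 1 to 3, 13 to 17 and 10 to 13 over the CD43- steps, 23 to 30, 25 to 32 and 9 to 14 over the CD43+ steps, and 40 to 44 for the change of the difference. The count of 2 from day 6 to 9 in CD43- cells was 1 without replicate 2 of day 6 or replicate 1 of day 9. Depth is unknown, so values near 0 cannot be told from values not detected.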
